A study of Mus musculus with 9 samples.

Results

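A set of 10 genes of the TGF-beta and activin system was followed through fracture callus, the repair tissue that bridges a broken bone. They were taken from the deposited table by gene symbol, as the 10 of its 22054 genes that encode the ligands TGF-beta 1, 2 and 3 (Tgfb1, Tgfb2, Tgfb3) and the activin A subunit (Inhba), the receptors Tgfbr1, Tgfbr2 and Tgfbr3, the latency protein Ltbp1, the activin antagonist follistatin (Fst) and the TGF-beta-induced matrix protein Tgfbi. Each symbol occurred once in the table. Callus was collected on day 7 from male wild-type C57BL/6J mice aged 7 weeks, whose left femur had been cut and pinned. From the day after surgery every mouse received 200 μl by intraperitoneal injection each day for 1 week, holding 750 nmol of H-151, 30 mg/kg of SR-717 or PBS alone, with 3 libraries in each of the 3 groups. H-151 is a small molecule that blocks STING, the adaptor that carries the signal of cytosolic DNA to interferon and NF-κB, whereas SR-717 is a synthetic agonist of the same protein. The drugs were given to the whole animal, and the labels do not say whether a library came from a single mouse.

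TGF-beta ligands are secreted in a latent form, held by their own propeptide and bound to the matrix through latency proteins such as LTBP1. Once freed, they bind TGFBR2, which recruits and phosphorylates TGFBR1, and the SMAD proteins then carry the signal to the nucleus. Bone matrix stores TGF-beta, and the pathway is known in fracture repair for cartilage formation and for coupling bone resorption to bone formation. Activin A, a dimer of the Inhba product, uses its own receptors and the same SMADs, and follistatin binds and blocks it.

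The 10 genes lie on 8 chromosomes of the mouse genome (GRCm38, GENCODE M21 gene bounds). Tgfb1 is at chr7:25687002-25705077, Tgfb2 at chr1:186622792-186705989, Tgfb3 at chr12:86056745-86079041 and Inhba at chr13:16011851-16031621. The receptor genes are at chr4:47353222-47414931 (Tgfbr1), chr9:116084293-116175360 (Tgfbr2) and chr5:107106570-107289629 (Tgfbr3). Ltbp1 is at chr17:75005568-75392512, and Fst (chr13:114452290-114458951) and Tgfbi (chr13:56609523-56639562) share chromosome 13 with Inhba.

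RefSeq promoter windows of 300 bases, from 250 before to 50 after a transcript start on GRCm38.p6, were found for 7 of the 10 genes (9 windows), and not for Tgfb3, Tgfbr3 and Fst. Shown here are the windows of Inhba and Tgfbi, which were both highest in PBS replicate 1 and SR-717 replicate 1, and of Ltbp1, which was lowest in those 2 libraries. Capitals mark the SMAD box CAGAC on either strand (GTCTG on the strand shown) and the TATA box TATAAA on the gene's own strand. Ltbp1 has a second window at another start, which is not shown. The Inhba window is chr13:16011601-16011900, the Tgfbi window chr13:56609336-56609635 and the Ltbp1 window shown chr17:75005279-75005578, all on the plus strand.
Inhba: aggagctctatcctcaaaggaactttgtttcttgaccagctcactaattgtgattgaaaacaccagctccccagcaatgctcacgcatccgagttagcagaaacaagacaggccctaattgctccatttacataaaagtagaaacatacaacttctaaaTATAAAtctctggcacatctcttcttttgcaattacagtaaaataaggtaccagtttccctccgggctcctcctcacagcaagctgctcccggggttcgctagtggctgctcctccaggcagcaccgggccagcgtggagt
Tgfbi: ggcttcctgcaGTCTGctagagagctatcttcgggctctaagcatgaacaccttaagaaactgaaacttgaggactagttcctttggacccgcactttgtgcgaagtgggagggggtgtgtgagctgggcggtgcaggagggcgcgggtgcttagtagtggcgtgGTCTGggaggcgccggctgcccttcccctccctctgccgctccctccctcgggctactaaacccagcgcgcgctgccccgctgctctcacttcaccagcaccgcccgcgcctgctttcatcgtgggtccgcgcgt
Ltbp1: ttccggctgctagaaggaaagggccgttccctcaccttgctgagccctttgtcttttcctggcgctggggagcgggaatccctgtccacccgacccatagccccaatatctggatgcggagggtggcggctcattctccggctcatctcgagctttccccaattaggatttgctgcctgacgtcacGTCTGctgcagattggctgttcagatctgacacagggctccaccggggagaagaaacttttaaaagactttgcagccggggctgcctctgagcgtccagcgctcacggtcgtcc

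The Inhba window held no SMAD box and a TATAAA that began 91 bases before the start. The Tgfbi window held 2 SMAD boxes, at -239 and -85, and the Ltbp1 window shown held 1, at -64. The other Ltbp1 window, chr17:75178531-75178830, held 2, at -148 and -97. Over the 9 windows of these genes 6 held a SMAD box (66.7%), against 49.6% of all 32851 promoter windows, so the letters alone were common in any promoter. The palindrome GTCTAGAC was in none of the 9 windows and in 0.213% of all, and the AP-1 motif TGANTCA, searched on both strands, was in none of the 9 and in 7.81% of all. TATAAA was in 2 of the 9 (22.2%, Tgfb2 at -31 and Inhba at -91) and in 8.32% of all. No match overlapped another motif. A match is a run of letters and was not tested for binding. The windows of the family differed in base composition, from 47.7% G and C in Inhba to 77.0% in Tgfb1, with a median of 58.7% against 52.7% over all windows.

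A library held between 16987398 and 23272480 counts. SR-717 replicate 1 and PBS replicate 1 stood apart from the other 7 libraries on the first principal component of all genes, which carried 46.6% of the variance (100.6 and 38.78, against -28.82 to -4.03). Their summed TPM of 6 chondrocyte markers (such as Col2a1 and Acan) was 61.6 and 585.3, against 1613 to 6732 elsewhere. Neutrophil markers (6 genes such as S100a8 and Ly6g) summed to 27313 in SR-717 replicate 1 and 7359 in PBS replicate 1, against 1087 to 7922 elsewhere, and macrophage markers to 2244 and 1847 against 1014 to 1548. Osteoblast markers were also lowest in these 2 libraries (1165 and 2661, against 3129 to 6049 elsewhere), as were erythroid and B cell markers. The osteoclast sum was lowest in SR-717 replicate 1 (5138) but not in PBS replicate 1 (8508, against 6395 to 10773 elsewhere). Markers of osteoblasts, osteoclasts and chondrocytes were above 0 in every library and so were all 6 skeletal muscle markers (5117 to 27911 summed TPM). Differences of the 10 genes that turned sign without either library are given with and without it. In such bulk tissue, fewer cells of a type and less RNA per cell cannot be told apart.

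None of the 10 genes passed a threshold in any of the 3 comparisons. Thresholds were an unadjusted p under 0.05 with a fold change of at least 1.5, called the fold threshold here, and a Benjamini-Hochberg adjusted p under 0.05 over all genes tested with edgeR's quasi-likelihood test. All 10 were tested in each comparison, on 188 to 22440 counts per library. For SR-717 against H-151, 0 of 10 passed the fold threshold against 0.756% of 14151 genes (52 higher, 55 lower), and adjusted p was 0.996 for each. For SR-717 against PBS it was 0 of 10 against 0.519% of 14070 genes (38 higher, 35 lower), and for H-151 against PBS 0 of 10 against 0.426% of 14085 genes (37 higher, 23 lower), with edgeR's adjusted p at 1 for every member in both. When replicate number entered as a block, counts over all genes were 342 higher and 101 lower for SR-717 against PBS and 201 and 61 for H-151 against PBS, still with 0 of the 10. Without the block no member had an unadjusted edgeR p under 0.05 with all 6 libraries of a comparison. With it Tgfbr1 did for H-151 against PBS, short of 1.5-fold (log2 difference -0.47, edgeR p 0.0133, adjusted p 1). DESeq2 placed 0 of 10 past either threshold. At an adjusted p under 0.05 the share of all genes was 0 (0%) in each comparison with edgeR, where 146, 97 and 91 genes had an unadjusted p under 0.05, and DESeq2 called 1, 0 and 0 genes. Groups that did not overlap on CPM were found for 1 of the 10 between SR-717 and H-151, where 5.07% of all genes did so, for 0 of 10 between SR-717 and PBS (3.75% of all) and for 0 of 10 between H-151 and PBS (3.86% of all). The 2 comparisons with PBS share the same PBS libraries.

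**Figure D1:**
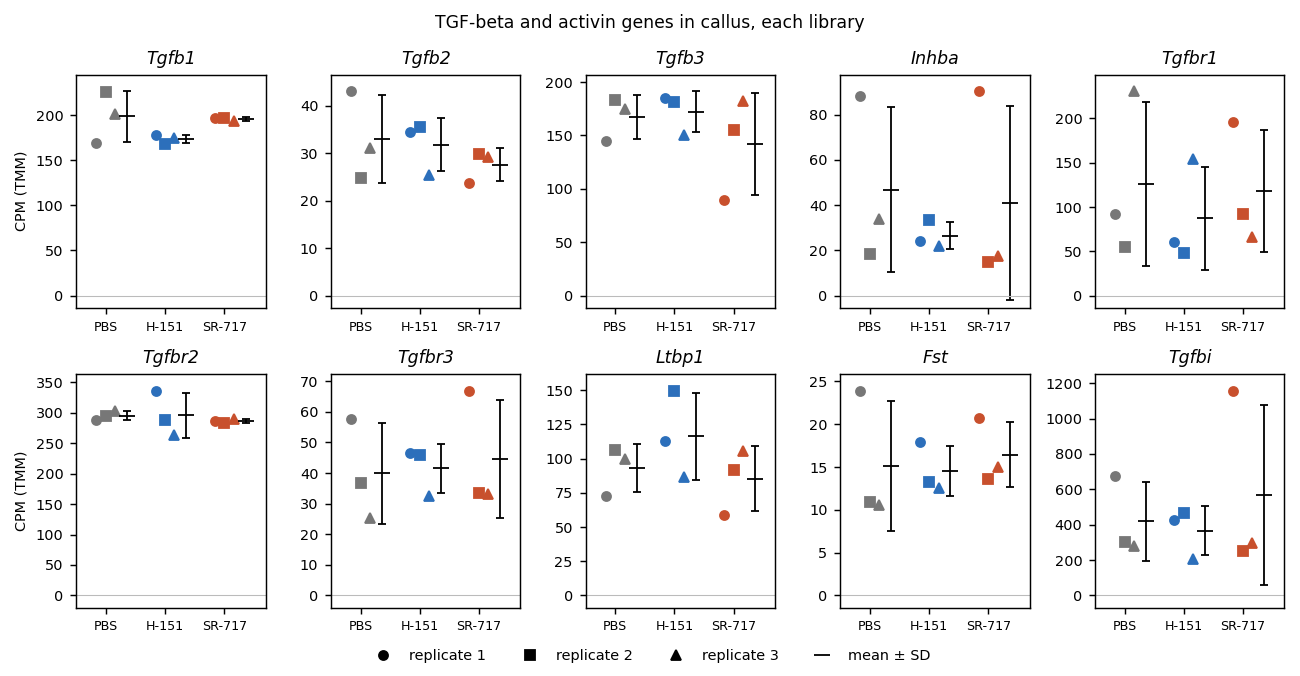
CPM (TMM-normalised) of the 10 genes in each of 9 libraries, with replicate number by symbol and the mean ± SD of each group of 3 at the right of its points; each panel has its own linear axis that includes 0. Tgfb1 and Tgfbr2 were nearly level, while Inhba and Tgfbi peaked in SR-717 replicate 1 and PBS replicate 1 (Inhba at 90.5 and 88.2, the other 7 libraries between 14.7 and 33.9).

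Levels of different genes can be set side by side on the TPM scale, which corrects for gene length. Averaged over 9 libraries, the TPM level was 303.7 for Tgfbi and 161.1 for Tgfb1, higher than 98.0% and 96.2% of genes in the table, and the ranges of both overlapped over the libraries (126.4 to 711.6 and 134.1 to 205.9). Tgfbr2 (88.5) and Tgfb3 (88.3) came next and did not differ beyond their ranges over the libraries. Tgfbr1 (35.3) and Ltbp1 (33.7) formed a middle pair that overlapped each other, with the top of the Tgfbr1 range (72.2) inside that of Tgfb3 and its lowest value (16.4) among the levels of the genes below. Tgfbr3 (12.8), Fst (12.4), Tgfb2 (11.6) and Inhba (10.9) were lowest, with ranges that overlapped throughout. Spread over the libraries did not follow level. The coefficient of variation of TPM was 12.5% for Tgfb1 and 18.2% for Tgfbr2, against 61.4% for Tgfbi and 75.9% for Inhba, whose highest library was 6.47 times its lowest. Without PBS replicate 1 and SR-717 replicate 1, the coefficient of variation was 34.4% for Tgfbi and 32.8% for Inhba (2.44 times from lowest to highest), and Tgfbr1 then varied most (60.9%, 4.39 times).

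Tgfb1, the most abundant of the ligands, had the lowest coefficient of variation of the set on TPM and, at 9.89%, was behind Tgfbr2 (6.70%) on CPM. Its CPM, a level scaled to library size and TMM-normalised, was 168.8, 225.2 and 201.2 in the PBS libraries, 177.4, 168.1 and 174.3 with H-151, and 196.9, 196.7 and 193.4 with SR-717. All 3 SR-717 libraries lay above all 3 H-151 libraries on CPM, and the PBS libraries overlapped both. The difference of SR-717 from H-151 was 0.17 on the log2 scale (SE 0.11, 95% interval -0.10 to 0.43). On the TPM scale the same groups overlapped (151.6, 159.7 and 167.7 with SR-717, 168.2, 147.9 and 134.1 with H-151), so the separation depended on the scaling. Against PBS the log2 difference of Tgfb1 was -0.02 (SE 0.16) for SR-717 and -0.20 (SE 0.15) for H-151.

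Tgfb3, the ligand with the next highest level, was low in a single library. PBS libraries held 144.4, 183.3 and 174.9 CPM, H-151 libraries 185.4, 181.5 and 150.2, and SR-717 libraries 89.2, 155.4 and 182.2. SR-717 replicate 1 was below all others, and without it the log2 difference from H-151 went from -0.29 (SE 0.27) to -0.04 and that from PBS to 0.02. The chondrocyte, osteoblast and osteoclast marker sums of SR-717 replicate 1 were also the lowest of the 9 (61.6, 1165 and 5138 TPM). The part of these in the Tgfb3 level was not tested. The difference from PBS was -0.24 (SE 0.28) for SR-717 and 0.04 (SE 0.16) for H-151 with all libraries, the latter -0.04 without PBS replicate 1.

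Tgfb2, the least abundant TGF-beta ligand here, held 43.1, 24.8 and 31.2 CPM in the PBS libraries, 34.5, 35.6 and 25.3 with H-151, and 23.6, 29.8 and 29.3 with SR-717. The groups overlapped, and the PBS libraries alone covered a wider range than the other 6 together. The log2 difference was -0.21 (SE 0.19) for SR-717 against H-151, -0.26 (SE 0.24) against PBS and -0.05 (SE 0.24) for H-151 against PBS. With SR-717 replicate 1 and PBS replicate 1 both left out, the difference between SR-717 and PBS was 0.10, on the other side of 0, and without PBS replicate 1 that between H-151 and PBS was 0.20.

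Inhba, which encodes the subunit of activin A, had the widest range of the 10 genes over all 9 libraries (6.15 times on CPM), and a narrower range than Tgfbr1 (2.30 against 4.84 times) without PBS replicate 1 and SR-717 replicate 1. Its CPM was 88.2, 18.6 and 33.9 in the PBS libraries, 24.4, 33.4 and 21.9 in the H-151 libraries, and 90.5, 14.7 and 17.4 in the SR-717 libraries. The high values came from PBS replicate 1 and SR-717 replicate 1, the libraries that stood apart on all genes, and the groups overlapped. The log2 difference between SR-717 and H-151 was 0.61 (SE 0.71, 95% interval -1.12 to 2.34) with all 6 libraries. Without SR-717 replicate 1 the sign turned, and Inhba passed the fold threshold at -0.74 (SE 0.22) with an edgeR adjusted p of 1. For H-151 against PBS it was -0.82 (SE 0.54), -1.19 (SE 0.42, edgeR adjusted p 0.783) without PBS replicate 2, which passed the fold threshold, and 0.04 without PBS replicate 1. For SR-717 against PBS it was -0.20 (SE 0.87), between -1.55 without SR-717 replicate 1 and 0.64 without PBS replicate 1. The direction of Inhba thus turned on single libraries in all 3 comparisons. In the 2 libraries where Inhba was high, the macrophage marker sum was the highest of the 9. The chondrocyte, osteoblast, erythroid and B cell marker sums were the lowest there, and the part of any of these in the Inhba level was not tested. Of the 9 deposited expected counts of Inhba, 3 were not whole, unlike those of the other members, so its counts are in part estimates.

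Tgfbr2, the receptor that binds the ligand first, hardly varied on CPM (coefficient of variation 6.70%, against 18.2% on TPM). PBS libraries held 287.9, 295.1 and 303.2 CPM, H-151 libraries 336.3, 288.8 and 263.2, and SR-717 libraries 286.5, 282.8 and 289.6. The H-151 libraries spanned the range of both other groups. Its log2 difference was -0.06 (SE 0.14, 95% interval -0.40 to 0.28) for SR-717 against H-151, -0.04 (SE 0.14) for SR-717 against PBS and 4.2e-03 (SE 0.15) for H-151 against PBS, -3.5e-03 without PBS replicate 1. SR-717 replicate 1, which set the extreme for other members, lay within the range of the other libraries for this receptor.

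Tgfbr1, the receptor kinase that phosphorylates SMAD2 and SMAD3, varied widely within every group. CPM was 92.2, 55.3 and 231.1 in the PBS libraries, 60.4, 47.8 and 153.7 with H-151, and 196.3, 92.0 and 66.0 with SR-717. Each group held 1 high library, replicate 3 in PBS and H-151 and replicate 1 in SR-717, and 2 that were lower by more than 1.5-fold. The log2 difference was 0.43 (SE 0.57) for SR-717 against H-151, -0.10 (SE 0.62) for SR-717 against PBS and -0.53 (SE 0.63) for H-151 against PBS. Without SR-717 replicate 1 the first of these was -0.15, and without PBS replicate 3 the others were 0.68 and 0.24. Each H-151 library was below the PBS library of the same number, though the labels do not state that these are pairs. With replicate number as a block the difference of H-151 from PBS was -0.47, the value with an unadjusted p under 0.05 given above. Without the block the edgeR p was 0.426. The block also raised the share of all genes past the fold threshold from 0.426% to 1.86% in this comparison. The 95% interval of Tgfbr1 for SR-717 against H-151, -0.96 to 1.82, covers changes of more than 1.5-fold in either direction.

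Tgfbr3, also called betaglycan, a co-receptor that presents TGF-beta 2 and also binds inhibin, held 57.6, 36.9 and 25.2 CPM in the PBS libraries, 46.6, 45.9 and 32.4 with H-151, and 66.9, 33.6 and 33.2 with SR-717. SR-717 replicate 1 and PBS replicate 1 were its highest libraries. The log2 difference of SR-717 from H-151 was 0.09 (SE 0.32), and -0.33 without SR-717 replicate 1. It was 0.16 (SE 0.40) for SR-717 against PBS, -0.26 without SR-717 replicate 1, and 0.06 (SE 0.31) for H-151 against PBS, 0.43 without PBS replicate 1.

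Ltbp1, which tethers latent TGF-beta to the matrix, was lowest in SR-717 replicate 1 and PBS replicate 1, the libraries that stood apart. Its CPM was 72.9, 106.0 and 99.6 in the PBS libraries, 112.8, 149.6 and 86.2 with H-151, and 58.9, 91.3 and 105.2 with SR-717. The highest library was H-151 replicate 2 and the lowest SR-717 replicate 1, and the groups overlapped. SR-717 against H-151 gave a log2 difference of -0.46 (SE 0.29), -0.25 without SR-717 replicate 1. The difference from PBS was -0.12 (SE 0.26) for SR-717, 0.09 without SR-717 replicate 1, and 0.32 (SE 0.24) for H-151. The chondrocyte marker sum was 61.6 and 585.3 TPM in the 2 lowest libraries. The osteoblast, erythroid and B cell marker sums were also lowest there, and the part of any of these in the Ltbp1 level was not tested.

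Fst, the secreted antagonist of activin, was the member with the lowest counts (188 in its lowest library). PBS libraries held 23.9, 10.9 and 10.6 CPM, H-151 libraries 17.9, 13.2 and 12.5, and SR-717 libraries 20.8, 13.6 and 15.1. In each group replicate 1 was highest, and the groups overlapped. The log2 difference was 0.17 (SE 0.24) for SR-717 against H-151, 0.12 (SE 0.38) for SR-717 against PBS and -0.05 (SE 0.36) for H-151 against PBS. Without PBS replicate 1 the differences from PBS were 0.62 for SR-717 and 0.45 for H-151, and without SR-717 replicate 1 those of SR-717 were -0.03 from H-151 and -0.08 from PBS.

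Tgfbi, a secreted matrix protein named for its induction by TGF-beta, was the most abundant member and the one with the largest fold change between SR-717 and H-151. Its CPM was 675.0, 299.6 and 282.0 in the PBS libraries, 425.3, 465.3 and 206.5 with H-151, and 1158, 253.4 and 298.4 with SR-717. SR-717 replicate 1 was far above every other library, and the other 2 SR-717 libraries lay within the range of H-151. The log2 difference between SR-717 and H-151 was 0.63 (SE 0.65, 1.55-fold), and -0.42 without SR-717 replicate 1. Against PBS it was 0.44 (SE 0.68) for SR-717, -0.61 without SR-717 replicate 1 and -0.06 without that library and PBS replicate 1. H-151 against PBS gave -0.20 (SE 0.44), and 0.34 without PBS replicate 1. In SR-717 replicate 1 the macrophage and neutrophil marker sums were also the highest of the 9 (2244 and 27313 TPM). The chondrocyte, osteoblast, osteoclast, endothelial and adipocyte sums were the lowest there. In PBS replicate 1, the next highest library for Tgfbi, the neutrophil sum (7359) was below that of H-151 replicate 1 (7922). The part of any of these in the Tgfbi level was not tested.

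**Figure D2:**
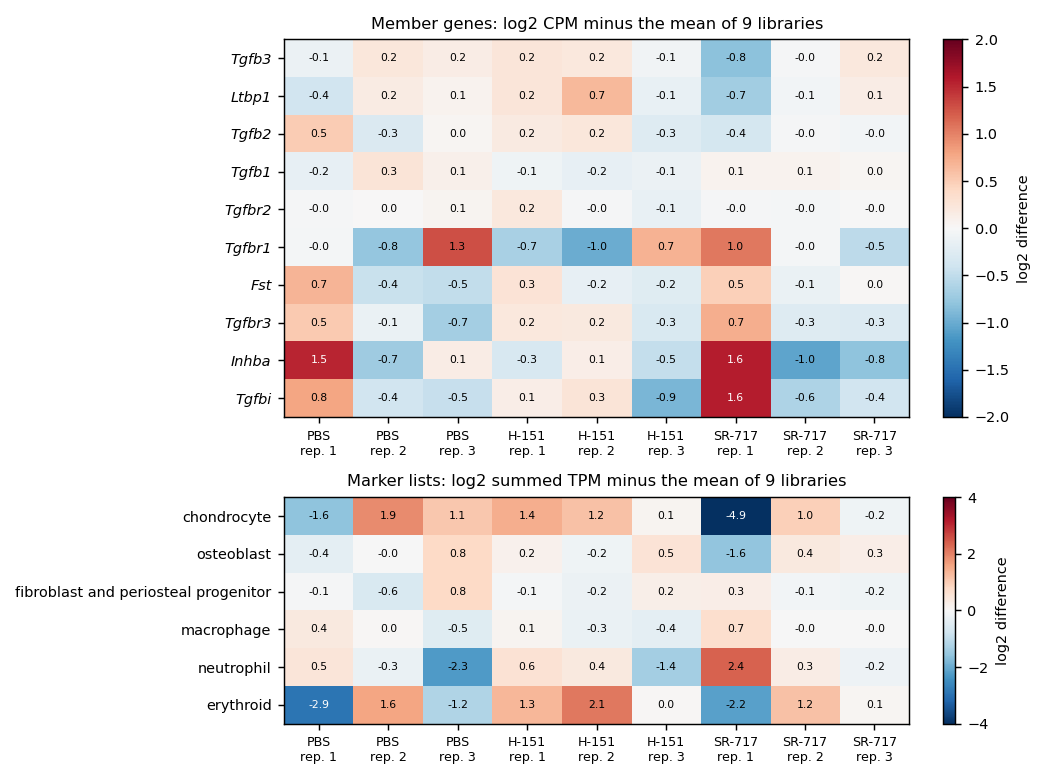
Colour and printed values give log2 CPM minus the mean of the 9 libraries for the 10 genes (upper panel, colour scale from -2 to 2), and log2 summed TPM minus the mean for 6 marker lists (lower panel, -4 to 4), with libraries in columns. Inhba, Tgfbi, Tgfbr3 and Fst were high in PBS replicate 1 and SR-717 replicate 1. Tgfb3 and Ltbp1 were below their means there, and so were the chondrocyte, osteoblast and erythroid marker sums.

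Several members ran together across the libraries. Over the 9 libraries Pearson's r of log2 CPM was 0.911 between Tgfbi and Tgfbr3, 0.872 between Tgfbi and Inhba, and 0.861 between Tgfb3 and Ltbp1, as a description, since 2 of the 9 libraries stood apart. Over the other 7 libraries these were 0.749, 0.476 and 0.702. The relation of Ltbp1 to Tgfbi was -0.484 over 9 libraries and 0.921 over 7, and that of Tgfb3 to Tgfbi -0.695 and 0.785, so both changed sign when SR-717 replicate 1 and PBS replicate 1 were left out. Of the TGF-beta ligands themselves, Tgfb1 and Tgfb2 ran opposite (-0.645 over 9 and -0.558 over 7), and Tgfb1 and Tgfb3 were close to unrelated (-0.00424 and 0.178).

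**Figure D3:**
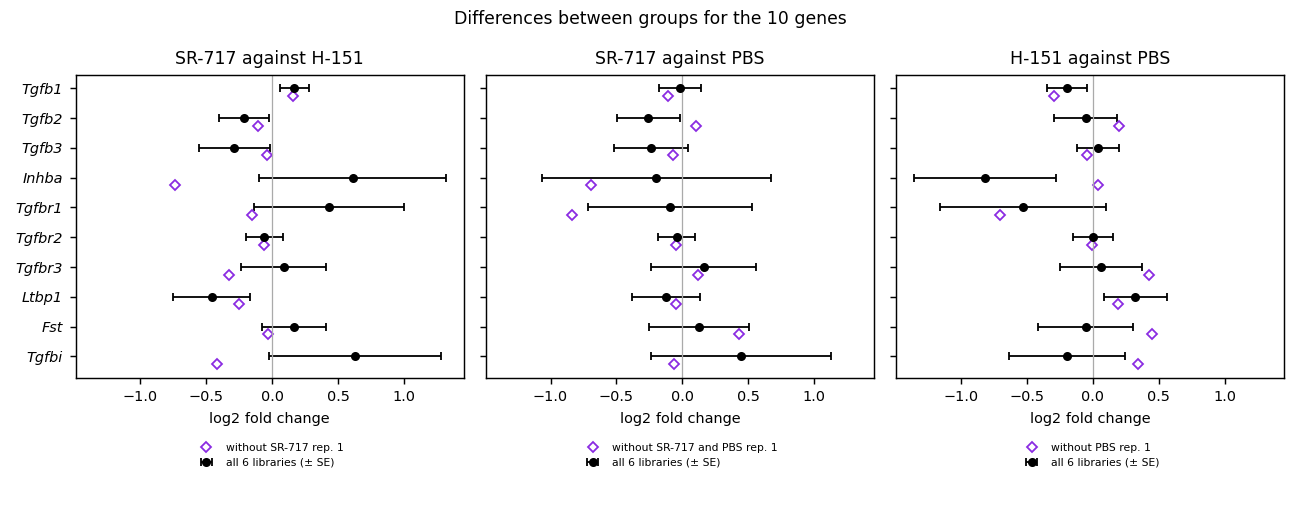
Log2 fold changes of the 10 genes in 3 comparisons, with all 6 libraries (black points ± SE) and without the libraries that stood apart (open diamonds: without SR-717 replicate 1 at left, without SR-717 replicate 1 and PBS replicate 1 in the middle, without PBS replicate 1 at right). Inhba moved from 0.61 to -0.74 and Tgfbi from 0.63 to -0.42 in the left panel, while Tgfb1 and Tgfbr2 stayed near their values.

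Across the set, 6 of the 10 log2 differences between SR-717 and H-151 were above 0 (median 0.13, against 0.02 over all genes, with 53.4% above 0). Without SR-717 replicate 1, 9 of 10 were below 0 (median -0.13, all genes -0.01, 51.3% below 0). With another library left out, the number below 0 ran from 3 of 10 (without H-151 replicate 1, 49.1% of all genes) to 5 of 10 (without H-151 replicate 3, 42.4%). Between SR-717 and PBS 7 of 10 were below 0 (median -0.07, all genes 0.01, 47.8% below 0). This was 5 of 10 without SR-717 replicate 2 (48.9% of all genes) and 5 of 10 without SR-717 replicate 3 (49.8%). Between H-151 and PBS 6 of 10 were below 0 (median -0.05, all genes -0.02, 55.8% below 0), and 4 of 10 (median 0.11, 51.2%) without PBS replicate 1. This was 9 of 10 without H-151 replicate 1 (52.8%) and 3 of 10 without H-151 replicate 3 (58.3%). The typical size of a difference, as the median without sign, was 0.25 for members against 0.16 for all genes between SR-717 and H-151, 0.14 against 0.17 between SR-717 and PBS, and 0.13 against 0.12 between H-151 and PBS.

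Ratios within a library do not depend on how libraries are scaled to each other. Tgfb1 made up 60.3%, 63.6% and 61.6% of the summed TPM of the 3 TGF-beta ligands in the PBS libraries, 57.0%, 56.2% and 62.0% with H-151, and 74.2%, 63.5% and 60.1% with SR-717. Tgfb3 held 21.5% in SR-717 replicate 1 and between 32.3% and 38.7% in the other 8 libraries. Tgfb2 held 3.07% to 6.82%. The composition was thus similar in 8 of the 9 libraries, and the summed TPM of the 3 ligands was 279.9 ± 39.3 with PBS, 258.2 ± 39.5 with H-151 and 245.0 ± 37.8 with SR-717 (SD, n = 3).

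The ratio of Inhba to its antagonist Fst on TPM was 1.35, 0.597 and 1.16 in the PBS libraries, 0.479, 0.886 and 0.673 with H-151, and 1.56, 0.397 and 0.406 with SR-717. SR-717 held both the highest ratio and the lowest ones. Tgfbr2 exceeded Tgfbr1 in every library on TPM, by 1.10 to 5.85 times, and the ratio was lowest in PBS replicate 3, SR-717 replicate 1 and H-151 replicate 3. Tgfb1 exceeded Ltbp1 by 5.98, 5.27 and 5.22 times in the PBS libraries, 3.87, 2.79 and 5.11 times with H-151, and 8.20, 5.39 and 4.62 times with SR-717. All H-151 libraries lay below all PBS libraries for this ratio (5.11 against 5.22 at the nearest), which was described and not tested. How often the ratios of other gene pairs separate in this way was not computed. Between the same groups the TPM ratio of Tgfb3 to Ltbp1 overlapped (2.59, 1.92 and 2.81 with H-151, 3.27, 2.76 and 2.90 with PBS). On CPM the H-151 ratios of Tgfb1 to Ltbp1, 1.57, 1.12 and 2.02, reached the lowest PBS value (2.02), and the groups overlapped.

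**Figure D4:**
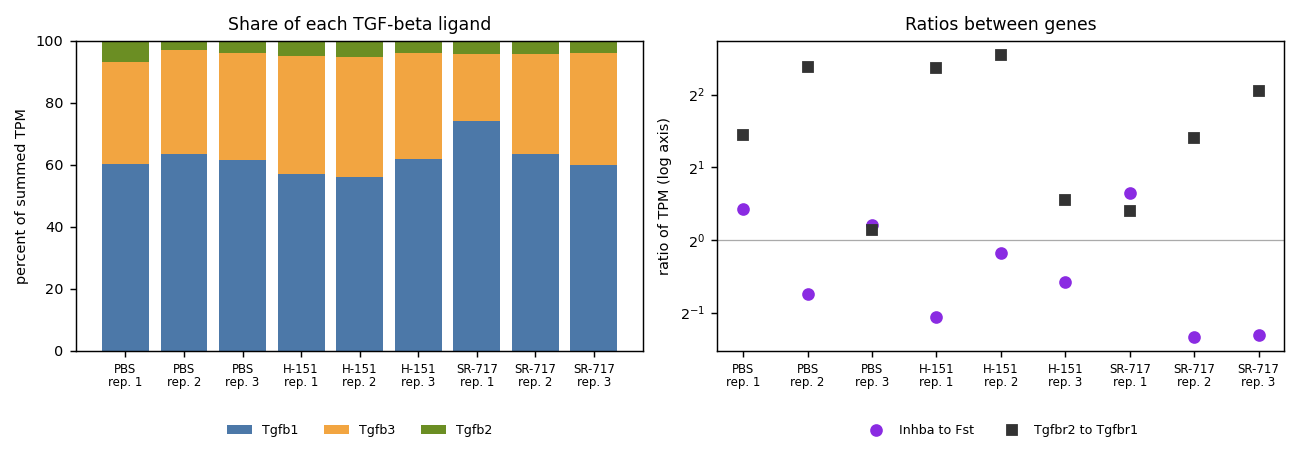
Left, the share of Tgfb1, Tgfb3 and Tgfb2 in their summed TPM, in percent, for each of 9 libraries as stacked bars from 0 to 100. Right, the TPM ratios of Inhba to Fst and of Tgfbr2 to Tgfbr1 in the same libraries on a log axis; SR-717 replicate 1 had the largest Tgfb1 share (74.2%) and the largest Inhba to Fst ratio (1.56).

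The wider pathway was read from 5 lists of 52 further genes, of which 51 were tested (Acvr1c was too low). A single gene of the 51 passed the fold threshold, for SR-717 against PBS, where 0.519% of all genes did so. Ccn2, a secreted matricellular protein long used as a readout of TGF-beta signaling, fell with SR-717 relative to PBS, by 0.75 on the log2 scale (SE 0.22, edgeR adjusted p 1). Its TPM was 217.5, 181.3 and 155.4 in the PBS libraries, 144.0, 210.0 and 123.4 with H-151, and 73.1, 116.3 and 123.1 with SR-717. All SR-717 libraries lay below all PBS libraries. On CPM these groups did not overlap for 2 of the 51 genes (Ccn2 and Inha), where 3.75% of all genes did so. The lowest Ccn2 level was in SR-717 replicate 1. Without that library the log2 difference was -0.57 (SE 0.19), short of 1.5-fold, and without PBS replicate 1 as well it was -0.43 (SE 0.15). In the fit without SR-717 replicate 1, Snai1, a transcription factor of the same list, passed instead (-0.59, SE 0.22, edgeR adjusted p 1). Against H-151 the log2 difference of Ccn2 was -0.56 (SE 0.25), short of the threshold.

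Latency and activation genes (11, such as Thbs1, which activates latent TGF-beta, and the integrin subunit Itgb5) had 0 members past the fold threshold in each comparison. Thbs1 held a mean TPM of 337.8 ± 84.4 with PBS, 311.1 ± 71.0 with H-151 and 361.3 ± 202.7 with SR-717 (SD, n = 3), with its highest value, 594.9, in SR-717 replicate 1, and its log2 difference of SR-717 from H-151 went from 0.33 (SE 0.42) to -0.30 (SE 0.17) without that library. Itgb5 differed by -0.01 (SE 0.13) between SR-717 and H-151. Activin and inhibin ligands and antagonists (7) likewise had 0 past the threshold. Among them Fstl1, a follistatin-related secreted protein, differed by -0.15 (SE 0.29) and Bambi, a decoy receptor, by -0.23 (SE 0.49). Bambi held 11.98 TPM in SR-717 replicate 1 but 38.7 and 46.4 in the other SR-717 libraries, against 32.9, 32.18 and 50.05 with H-151. Of the 5 further receptors tested 0 passed, with log2 differences of 0.14 (SE 0.13) for the endothelial co-receptor Eng and 0.38 (SE 0.28) for Acvrl1. Acvrl1 held 57.05 TPM in SR-717 replicate 1 but 31.25 and 34.42 in the other SR-717 libraries, against 42.84, 33.45 and 23.48 with H-151. The 10 SMAD and SMAD-regulating genes had 0 past the threshold. Ski, a repressor of SMAD activity, differed by -0.01 (SE 0.14), and Tgif1, another repressor, by 0.67 (SE 0.44). Without SR-717 replicate 1 the difference of Tgif1 was -0.04 (SE 0.12). It held 79.5 TPM in SR-717 replicate 1 and 61.4 in PBS replicate 1 against 28.9 to 35.4 in the other 7 libraries.

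Target genes of TGF-beta (18) were mostly below 0 against PBS. Against PBS, 16 of 18 were lower with SR-717 (median log2 difference -0.28, all genes 0.01, of which 47.8% were below 0) and 16 of 18 with H-151 (median -0.23, all genes -0.02, 55.8% below 0). Ccn2 alone passed the fold threshold, with SR-717, and the 2 comparisons share their PBS libraries. Without PBS replicate 1 these counts were 10 of 18 (median -0.12, 49.6% of all genes below 0) and 12 of 18 (median -0.05, 51.2%). For SR-717 against PBS it was 15 of 18 without SR-717 replicate 1 (median -0.45, 53.1% of all genes). With both libraries that stand apart left out it was also 15 of 18 (median -0.15, 50.5%). Between SR-717 and H-151 it was 11 of 18 (median -0.09, 46.6% of all genes), and 15 of 18 (median -0.20, 51.3%) without SR-717 replicate 1. It was 7 of 18 without SR-717 replicate 2 (median 0.02, 48.6%) and 7 of 18 without H-151 replicate 2 (median 0.03, 46.5%). The collagens Col1a1 and Col3a1, the most abundant genes of the list, differed by -0.04 (SE 0.37) and -0.02 (SE 0.32) between SR-717 and PBS.

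**Figure D5:**
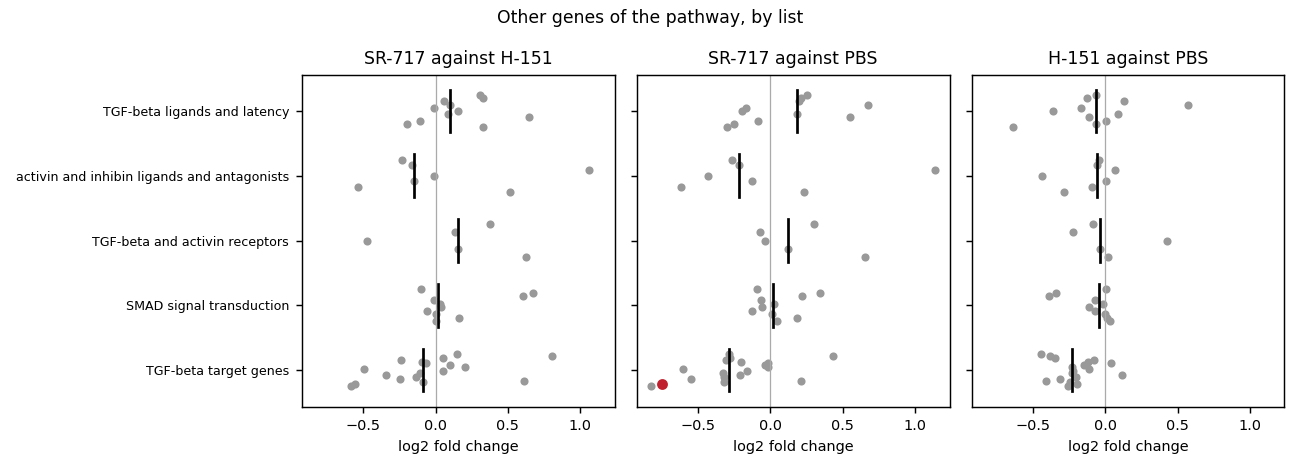
Log2 fold changes of the 51 further pathway genes in the 3 comparisons, by list, with each gene as a point and the list's median as a black bar. The red point is Ccn2 (-0.75), the only gene past an unadjusted p under 0.05 and 1.5-fold, and the target list lay mostly below 0 in both comparisons with PBS.

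The genes most like each ligand were ranked by Pearson's r of log2 CPM over the 9 libraries among 14294 genes, a description in which the top of so long a ranking is high by selection. Tgfb1 was closest to Prpf31 (0.942), Zfp598 (0.910) and Cep250 (0.910), and over the 7 libraries without the pair that stood apart these were 0.939, 0.916 and 0.887. Tgfb2 was closest to Spats2l (0.942), Zeb1 (0.913) and Lrrc27 (0.909), which gave 0.886, 0.781 and 0.873 over 7. Tgfb3 was closest to Lrrn4cl (0.982), Ntn4 (0.973) and Ctif (0.973), with 0.819, 0.722 and 0.929 over 7. Inhba was closest to Katna1 (0.976), Ints12 (0.963) and Chd1 (0.960), with 0.883, 0.857 and 0.843 over 7. The lowest of the 12 values over the 7 libraries was that of Ntn4.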

How the data were processed

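Sequencing and the steps up to the table were done by a service company for the authors, from poly(A)-selected, strand-specific, paired-end libraries. The authors deposited, for 22054 genes in 9 libraries, expected counts (estimated read counts that need not be whole, not normalized) and TPM values scaled for gene length. The submitters' processing note names the build mm10 (version 10 of mm); the aligner, the counter and whether it used strand are not given in the sources used here, so counts of overlapping genes are uncertain. The labels' extraction text speaks of cell lines although the tissue is bone.

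Expected counts were rounded and fitted with edgeR 4.0.16 (R 4.3.3): filterByExpr (count minimum 10, total 15), TMM, glmQLFit and glmQLFTest, each comparison on its own 6 libraries, without covariates, with p adjusted over all genes tested. DESeq2 1.42.0 was run as an alternative, since the paper names DESeq. Thresholds of 0.05 and 1.5-fold follow the paper, which does not say whether p was adjusted. CPM came from TMM over all 9 libraries, and log2 CPM used a prior count of 2. The script was tested on simulated counts. No 2 of the 9 libraries agreed within counting noise (smallest chi-square per gene 25.5 over 36 pairs). Nothing says that libraries came from separate mice, so p-values measure the spread between these libraries.

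Groups and replicate numbers came from the labels. Same-numbered libraries deviated together from their group means in SR-717 against PBS (correlations 0.65, 0.341 and 0.139) and H-151 against PBS (0.305, 0.485 and 0.503), and not in every pair of SR-717 against H-151 (0.342, 0.0621 and 0.0793); the pairing comes from the data alone.

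The members, gene lists and marker lists were chosen with earlier results of these data known. Genes named are all 10 members, pathway genes past 0.05 and 1.5-fold or else the 2 of each list with the highest mean TPM, and the 3 genes most correlated with each ligand. Promoters are RefSeq sequences. Alternatives were DESeq2 size factors, DESeq2's Wald test, no filter, a mean count minimum of 50, a joint fit of all 9 libraries, a replicate block, each library left out and, chosen after seeing the data, both libraries that stand apart left out. Protein sequences and the study's day 21 callus were not used here.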

Additional observations from a re-analysis of the deposited data

How the results depend on the processing

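Of the members' log2 fold changes under alternatives other than leaving out a single library, 185 of 190 kept their direction and stayed short of the fold threshold. These include the fit with both libraries that stand apart left out. The other 5 changed sign. With both libraries that stand apart left out, Tgfb2 gave 0.10 and Tgfbi -0.06 for SR-717 against PBS. With the replicate block, Tgfbr1 gave 0.06 for SR-717 against PBS, and Tgfbr2 -3.0e-03 and Fst 0.03 for H-151 against PBS. The block called 0 of the 10 genes in any comparison. With each library left out in turn, 38 of 180 changed sign and 1 more passed the threshold. For SR-717 against H-151 the ranges were -0.74 to 1.01 for Inhba, -0.15 to 1.11 for Tgfbr1, -0.14 to 0.05 for Tgfbr2, -0.33 to 0.26 for Tgfbr3, -0.03 to 0.35 for Fst and -0.42 to 0.98 for Tgfbi. For SR-717 against PBS they were -0.12 to 0.08 for Tgfb1, -0.45 to 0.02 for Tgfb3, -1.55 to 0.64 for Inhba, -0.67 to 0.68 for Tgfbr1, -0.26 to 0.52 for Tgfbr3, -0.31 to 0.09 for Ltbp1, -0.08 to 0.62 for Fst and -0.61 to 0.97 for Tgfbi. For H-151 against PBS they were -0.21 to 0.20 for Tgfb2, -0.04 to 0.13 for Tgfb3, -1.19 to 0.04 for Inhba, -1.22 to 0.24 for Tgfbr1, -0.09 to 0.08 for Tgfbr2, -0.18 to 0.43 for Tgfbr3, -0.25 to 0.45 for Fst and -0.41 to 0.34 for Tgfbi. The count of members past the fold threshold ran from 0 to 1 for SR-717 against H-151 (1 without SR-717 replicate 1) and from 0 to 1 for H-151 against PBS (1 without PBS replicate 2), Inhba each time. The count of the 51 other pathway genes ran from 0 to 3 for SR-717 against H-151 (3 without SR-717 replicate 3) and from 0 to 2 for H-151 against PBS (2 without PBS replicate 2), and for SR-717 against PBS it was 0 with both libraries that stand apart left out. In each of these the cause was not tested.

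Over all genes, the count past the fold threshold for SR-717 against H-151 (52 higher, 55 lower) was 147 higher with DESeq2, 123 and 100 without a filter and 24 lower with a mean count of at least 50. It was 109 higher with all 9 libraries in 1 fit and 88 higher with the replicate block, a pairing that the labels do not state. With a library left out it was 19 to 544 higher and 36 to 170 lower. For SR-717 against PBS (38 and 35) it was 93 higher with DESeq2, 141 and 53 without a filter, 20 and 17 with a mean count of at least 50, 117 and 59 with all 9 libraries, 342 and 101 with the replicate block, 82 higher without both libraries that stand apart, and 60 to 261 higher and 24 to 108 lower with a library left out. For H-151 against PBS (37 and 23) it was 39 lower with DESeq2, 89 and 38 without a filter, 17 and 11 with a mean count of at least 50, 201 and 61 with the replicate block, and 30 to 482 higher and 13 to 216 lower with a library left out. For Inhba and Tgfbr1, the 95% intervals of SR-717 against H-151 (-1.12 to 2.34 and -0.96 to 1.82) reach past 1.5-fold in either direction with 3 libraries a group. The same holds for Tgfbi (-0.95 to 2.21) and Tgfbr3 (-0.69 to 0.87). Those of Tgfb2, Tgfb3, Ltbp1 and Fst reach past it in a single direction, and only those of Tgfb1 and Tgfbr2 stay within it.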
